A study of Mus musculus with 14 samples.

Results

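The genes described here encode 10 apolipoproteins, the protein parts of the particles that carry lipid in blood: Apoa1, Apoa2, Apoa4, Apoa5, Apob, Apoc1, Apoc3, Apoe, Apoh and Apom. They were chosen by name, as 10 of 35171 gene rows used in the bulk tables and 10 of 28692 genes in a single-cell matrix, and all 10 were found in both. RNA was measured in 13 bulk libraries and 1 single-cell library of mouse liver, in a study of the receptor P2Y14 and hepatic stellate cells, which store vitamin A and make scar matrix after injury. Quiescent stellate cells (4 libraries) were never plated. They came from uninjured mice labelled LratCre+, TdTom+ in C57BL/6J, after perfusion, digestion, a density gradient and a sort for vitamin A and for TdTom, a red reporter switched on by Cre from the stellate cell gene Lrat. Whole uninjured liver (3 libraries) carries the same strain label. Cultured stellate cells (3 control and 3 treated libraries) carry the strain label Balbc, with no sort described. They were kept in 10% serum for 5 h and then in 0.1% serum for 24 h, without or with 10 µM UDP-glucose, a nucleotide sugar that activates P2Y14. The single-cell library came from 1 digested, untreated C57BL/6 liver. No animal ages are given. The labels do not say whether libraries of a group came from different mice or dishes, so the p-values rest on the spread among these samples, which may be technical.

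Apolipoproteins hold lipoprotein particles together, activate or block the enzymes that act on them, and bind the receptors that remove them. Hepatocytes make most of them for blood, and the small intestine makes several, among them Apoa1, Apoa4, Apob and Apoc3, for chylomicrons. Apoe differs from the rest in being made by many cell types, macrophages among them, where it carries cholesterol out of cells.

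A pair of gene clusters holds 6 of the 10. In GRCm38 with GENCODE M21, Apoa1 (chr9:46228580-46230466, plus strand), Apoc3 (chr9:46232933-46235636, minus), Apoa4 (chr9:46240696-46243459, plus) and Apoa5 (chr9:46268633-46271919, plus) lie within 43.3 kb. Apoe (chr7:19696109-19699188, minus) and Apoc1 (chr7:19689481-19692660, minus) lie 3448 bases apart in a cluster of 27.6 kb that also holds Apoc4 and Apoc2. Apoa2 is on chromosome 1, Apob on 12, Apoh on 11 and Apom on 17. Of the exon bases of Apoa4, 69.8% also lie in exons of the predicted models Gm10680 and Gm47528, and 20.8% of those of Apoa5 in Gm47544. Use of strand in the counting was not stated, so values of these 2 genes may be shared with those models.

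RefSeq promoter windows (GRCm38.p6, 250 bases before to 50 after the start) were found for 8 members, not for Apoc1 and Apoc3. The windows of 4 members are printed because their levels parted ways in these data: Apoe stayed high in stellate cells, Apob was low in them, and Apoa1 and Apoa4 were low in quiescent cells but present in some cultures. Capitals mark CAAAGNNCA, letters found in binding sites of the hepatocyte factor HNF4, and TATAAA, letters of the TATA box, on either strand. The windows are chr7:19699139-19699438 (minus strand) for Apoe, chr12:7977427-7977726 (plus) for Apob, chr9:46240594-46240893 (plus) for Apoa4 and chr9:46228380-46228679 (plus) for Apoa1.
Apoe: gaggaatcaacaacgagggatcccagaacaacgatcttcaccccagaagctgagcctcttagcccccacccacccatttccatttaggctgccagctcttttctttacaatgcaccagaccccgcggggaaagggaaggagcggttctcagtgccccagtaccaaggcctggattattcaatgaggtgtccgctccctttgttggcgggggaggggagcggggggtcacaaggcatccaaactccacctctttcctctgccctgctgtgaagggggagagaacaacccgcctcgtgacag
Apob: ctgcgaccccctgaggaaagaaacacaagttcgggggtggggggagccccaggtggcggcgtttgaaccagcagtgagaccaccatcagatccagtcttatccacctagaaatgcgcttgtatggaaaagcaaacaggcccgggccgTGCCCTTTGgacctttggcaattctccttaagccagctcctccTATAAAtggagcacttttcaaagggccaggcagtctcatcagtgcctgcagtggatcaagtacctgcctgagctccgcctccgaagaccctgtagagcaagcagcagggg
Apoa4: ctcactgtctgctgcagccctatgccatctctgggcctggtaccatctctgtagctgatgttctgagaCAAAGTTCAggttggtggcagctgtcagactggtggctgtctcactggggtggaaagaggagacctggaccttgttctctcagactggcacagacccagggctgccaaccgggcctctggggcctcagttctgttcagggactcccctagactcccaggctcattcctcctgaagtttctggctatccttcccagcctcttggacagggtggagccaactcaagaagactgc
Apoa1: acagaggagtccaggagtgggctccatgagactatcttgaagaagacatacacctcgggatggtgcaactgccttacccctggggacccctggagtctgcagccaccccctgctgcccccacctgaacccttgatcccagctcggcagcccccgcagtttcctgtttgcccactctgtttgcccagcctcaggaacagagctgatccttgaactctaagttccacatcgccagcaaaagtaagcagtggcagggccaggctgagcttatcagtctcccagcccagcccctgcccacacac
CAAAGNNCA was found in 3 of 8 members' windows (Apoa4 from position -182, Apob from -103 and Apoh from -93, counted from the start) and in 6.36% of 32851 windows in the table. TATAAA was found in Apoa2 (from -212), Apoa5 (from -56) and Apob (from -60), 3 of 8, and in 13.6% of all windows. These letters were chosen after levels were known. The strings CAAAGTC (4.44% of all windows, overlapping the HNF4 letters), GTTAAT (7.1%, from the HNF1 site), TTGCGCAA (C/EBP, 0.183%), a longer HNF1 motif (0.399%) and an LXR repeat (0.0152%) matched none of the 8. A match is a description of the letters and not a bound site, and no match says only that these letters are not in the window.

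Bulk levels are TPM, a transcript unit scaled for gene length and to a fixed sum in each library, so the read depth behind them is unknown. Defining markers followed the labels. Lrat was 848 to 1300.3 TPM in quiescent cells, 0.619 to 1.36 in liver and 62.2 to 98.4 in culture, and the hepatocyte gene Alb was 4.52 to 11.2, 17092 to 30006 and 0.120 to 3.33 TPM. Markers of other cells were present in the sorted cells: the Kupffer cell gene Clec4f at 19.6 to 41.8 TPM and the sinusoidal endothelial gene Stab2 at 16.3 to 56.0 TPM, against at most 0.678 TPM for Clec4f and 0 for Stab2 in culture. The T cell gene Cd3e was listed at 0 in all 4 quiescent libraries, and the B cell gene Cd79a was at most 0.361 TPM in them.

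**Figure D1:**
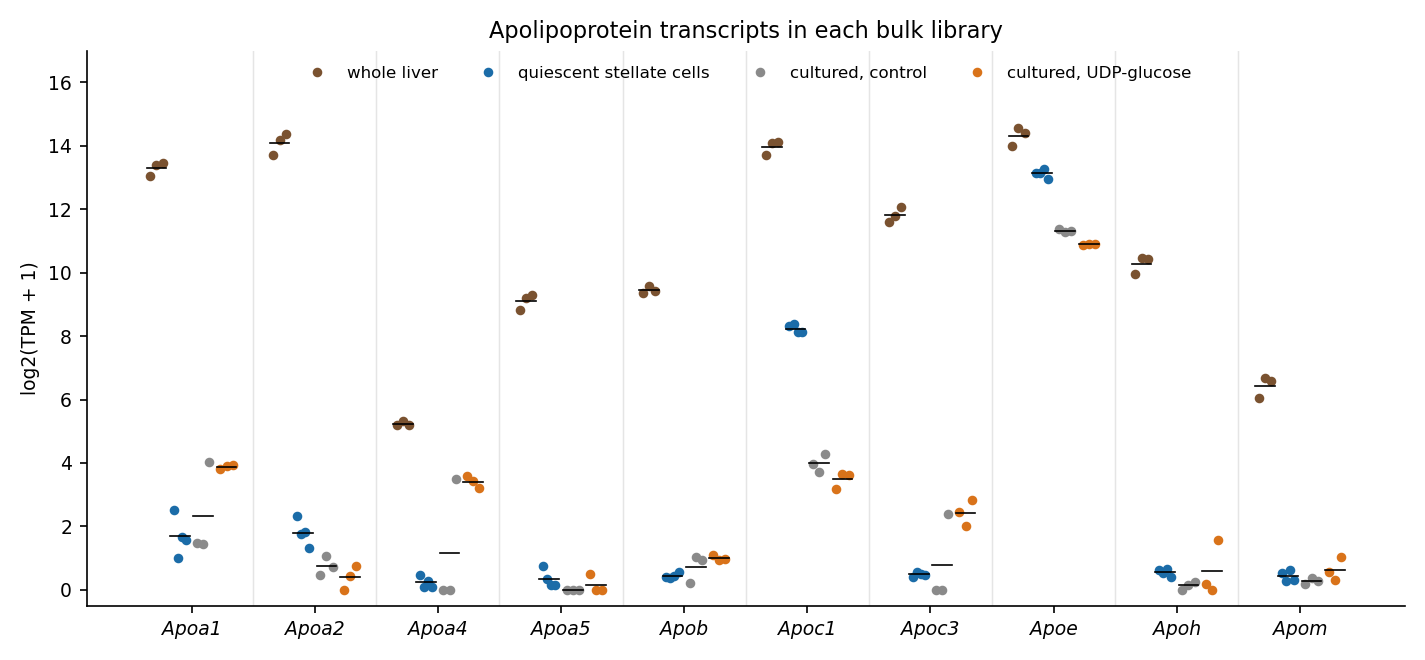
Level of each of the 10 genes as log2(TPM + 1) in every bulk library, by group. Each point is 1 library and each short line the mean of its group. Apoe stays between 1887 and 24246 TPM in all 13 libraries, Apoc1 is intermediate in quiescent cells, and the other 8 genes are at most 4.76 TPM there.

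Quiescent stellate cells held far less of 9 apolipoprotein transcripts than whole liver, and somewhat less of Apoe except with quantile normalisation. In liver the 10 genes made up 7.13% ± 1.25 of all TPM (SD, n = 3), in quiescent stellate cells 0.934% ± 0.0770 (n = 4). The make-up differed too: Apoe was 29.2% ± 1.91 of the summed TPM of the 10 genes in liver and 96.7% ± 0.358 in quiescent cells. With limma on log2(TPM + 1), which understates the change of low genes, 10 of 10 members were called lower, at an adjusted p under 0.05 and a log2 change of at least 1. Of all 12643 genes tested, 10.9% were called lower, 67% higher and 77.9% in either direction, and the median log2 difference was -8.89 for the members and 1.62 for all genes. Because 6 members (Apoa4, Apoa5, Apob, Apoc3, Apoh and Apom) were under 1 TPM in every quiescent library, they passed the filter of a mean of at least 1 TPM through liver alone, and their count is not independent of it. The all-gene median fell from 1.62 to -0.03 when libraries were rescaled by median of ratios and to 0.11 with quantile normalisation, and the share of called genes that were higher fell from 86.0% to 48.7% and 54.7%. Liver and quiescent cells also stand in separately normalised tables. In bulk RNA, fewer cells of a type and less RNA per cell cannot be told apart.

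Apoe, the ligand by which remnant particles are taken up by cells, was the abundant apolipoprotein of stellate cells. It measured 9088, 9095, 9884 and 8020 TPM in the quiescent libraries and 16274, 24246 and 21934 TPM in liver. The groups did not overlap, and the liver libraries differed among themselves by more than the quiescent ones. The mean was 9022 ± 765 TPM (SD, n = 4) against 20818 ± 4102 TPM (n = 3), a log2 difference of -1.19 (SE 0.15, limma adjusted p = 1.95e-05). This direction depended on scaling: the difference was -3.13 after median-of-ratios rescaling and turned to 0.44, below the fold minimum, with quantile normalisation.

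Apoc1, a small exchangeable apolipoprotein that slows particle uptake and lipase action, lay between Apoe and the rest. It reached 320, 332, 278 and 279 TPM in sorted cells, against 13396, 17266 and 17901 TPM in whole liver. No library of either group came near the other group (log2 difference -5.73, SE 0.14, limma adjusted p = 1.84e-11).

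The high-density lipoprotein proteins Apoa1, the main one, and Apoa2 were abundant in liver and at a few TPM in quiescent cells. Apoa1 was 4.76, 1.01, 2.19 and 1.96 TPM in quiescent cells and 8396, 10697 and 11360 TPM in liver (log2 -11.60, limma adjusted p = 2.15e-11). Apoa2 was 4.04, 2.36, 2.51 and 1.52 TPM against 13478, 18795 and 21148 TPM (log2 -12.29, adjusted p = 3.65e-12). Replicate 1 of the quiescent cells was the highest of the 4 for both genes, and it also held the highest Alb, 11.2 TPM. Apom, the carrier of sphingosine 1-phosphate on the same particles, was 64.8 to 101 TPM in liver and 0.208 to 0.551 TPM in quiescent cells.

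The proteins of triglyceride-rich particles followed the same pattern. Apob, the scaffold that stays with 1 particle for its life, was 0.326, 0.307, 0.348 and 0.492 TPM in quiescent cells and 659, 758 and 693 TPM in liver (log2 -9.01, adjusted p = 9.84e-13 with limma). Apoc3, which inhibits lipoprotein lipase, was 0.333 to 0.490 TPM against 3099 to 4268 TPM, and Apoa5, which promotes that enzyme's action, was 0.0989 to 0.667 TPM against 455 to 625 TPM. Apoa4, mainly an intestinal protein in textbooks, was low even in liver, at 35.8, 38.8 and 35.6 TPM, and 0.0534 to 0.395 TPM in quiescent cells. Apoh, beta-2-glycoprotein I, which binds phospholipid in plasma, was 0.312 to 0.569 TPM against 994 to 1427 TPM. For none of these 5 genes did a quiescent library overlap liver, nor for any other member, while 13.9% of all genes tested were lower in quiescent cells without overlap.

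Hepatocyte markers in the same libraries give the scale for these traces. Their 16 listed genes fell to a median of 0.0305% of the liver mean in quiescent cells, from 0.00964% (Ttr) up to 0.288% (Tdo2) and, as the highest, 4.75% (Trf, transferrin). Apoe stood at 43.3% of its liver level (38.5% to 47.5% by library) and Apoc1 at 1.87% (1.72% to 2.05%). Apoa4 was at 0.493% and Apom at 0.419%, above all markers but Trf. The other 6 members were at 0.0111% (Apoc3) to 0.0523% (Apob), inside the range of the markers. Summed over the list, hepatocyte markers were 414 to 535 TPM in quiescent cells and 60063 to 84478 TPM in liver. Trf alone was 397 to 516 TPM of the quiescent sum and 8020 to 10095 TPM of the liver sum. Kupffer cell markers were called higher in 7 of 13 cases, beside 67% of all genes tested. They summed to 278 to 362 TPM in quiescent cells against 73.1 to 137 TPM in liver. Of these sums the iron exporter Slc40a1 alone was 151 to 201 TPM and 13.5 to 25.7 TPM. Sinusoidal endothelial markers summed to 436 to 1304 against 45.8 to 116 TPM, with 15 of 15 called higher. These counts were 1 of 13 and 11 of 15 with either rescaling. Of the Kupffer cell markers 2 were then called lower with median of ratios and 1 with quantile normalisation. The part of such cells in the Apoe and Apoc1 levels of the bulk libraries was not tested.

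**Figure D2:**
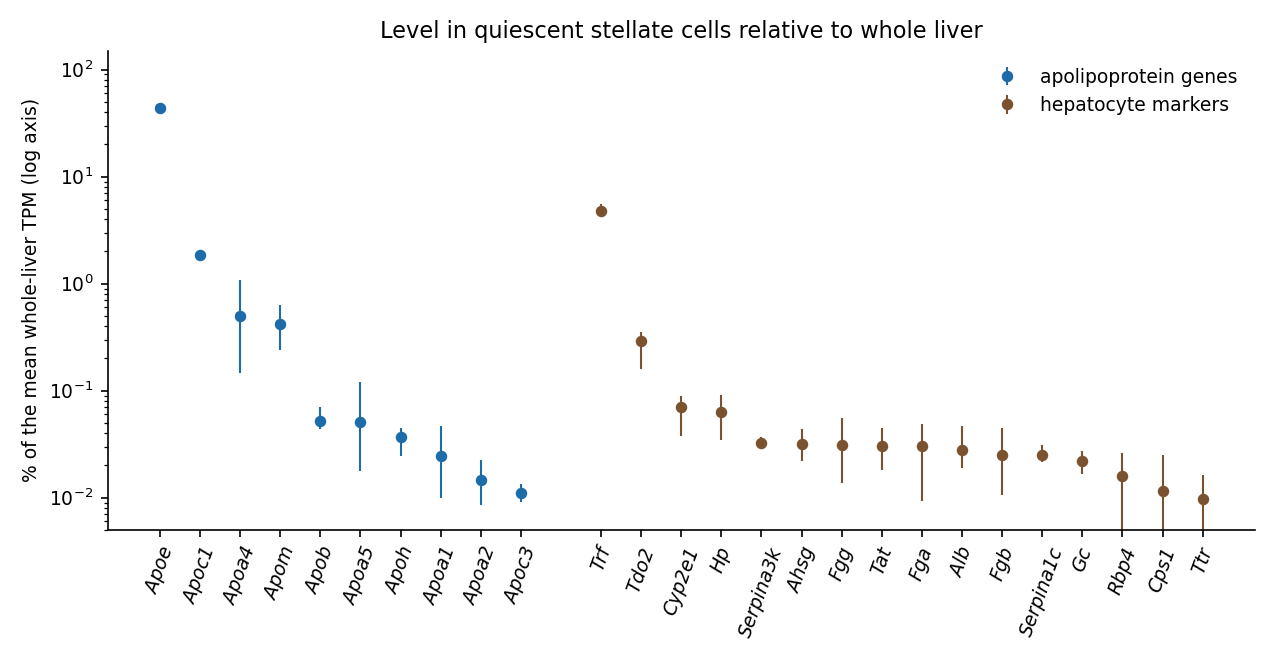
Mean level of each apolipoprotein gene and each hepatocyte marker in the 4 quiescent libraries as a percentage of its mean in whole liver, on a log axis. Bars run from the lowest to the highest library, and those of Rbp4, Cps1 and Ttr end below the plotted range. Apoe (43.3%) and Apoc1 (1.87%) stand apart from the other 8 members, and Trf (4.75%) from the other markers.

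The genes around these proteins are given from lists of their roles, and here the scaling decided several directions, so each count is followed by those after median-of-ratios rescaling and quantile normalisation. The nuclear factors that drive apolipoprotein genes in hepatocytes were lower in 9 of 10 cases under all 3 scalings. Mlxipl, the carbohydrate-sensing factor, was 0.230 against 197 TPM (log2 -7.31), Cebpa 12.3 against 120.0 TPM (-3.18), and Hnf4a, chosen after its values were seen, 0.0725 against 102 TPM (-6.58). The exception was the bile acid receptor Nr1h4 at 366 against 56.5 TPM, whose log2 difference of 2.69 became 0.77, below the fold minimum, and 1.70. In each quiescent library 4 or 5 of the 10 factors reached 1 TPM, as did 8 of 13 assembly genes and 5 or 6 of 17 other apolipoproteins. Genes that stayed under 1 TPM there passed the filter through liver alone, so the counts of lower genes are not independent of it.

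Of 13 genes of particle assembly 7 were lower and 2 higher, then 10 lower and 1 higher with both. Mttp, which loads lipid onto Apob, was 0.662 against 47.0 TPM (log2 -4.85), and Dgat2, which makes triglyceride, 7.01 against 122 TPM (-3.93). Surf4, an export receptor of the endoplasmic reticulum, was 175 against 49.2 TPM, and its 1.82 became -0.10 and 0.75, neither called. Of 15 other apolipoprotein-type genes 11 were lower and 3 higher, then 12 and 2, and 11 and 2, with Apoc4, beside Apoc1 on chromosome 7, at 0.467 against 1738 TPM (-10.21).

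Receptors and the proteins that act on finished particles were mixed. Of 12 receptor and clearance genes 7 were higher and 3 lower, then 3 and 4, and 4 and 3. Before rescaling, 67% of all genes tested were called higher and 10.9% lower. Lrp1 was 893 against 150 TPM, a log2 difference of 2.57 that became 0.64 and 1.77, and Mylip, a ubiquitin ligase, was 116 against 1.08 TPM (5.84) and higher under all 3. Scarb1, the high-density lipoprotein receptor, was 102 against 45.0 TPM (1.18), which turned to -0.73 and -0.03.

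Of 13 enzymes and carriers 4 were higher and 6 lower, and after rescaling 4 were higher and 8 lower. Pltp, which moves phospholipid between particles, was 562 against 19.8 TPM (log2 4.91), and Lcat, which esterifies cholesterol on high-density particles, 9.55 against 218 TPM (-4.37), with the same calls under all 3 scalings. In the efflux list 4 of 8 were higher and 3 lower, then 1 and 4, and 2 and 4. Abcg1, which exports cholesterol to high-density particles, was called higher throughout, at 40.0 against 0.505 TPM. The list medians before rescaling, then after median of ratios and quantile normalisation, were -3.02, -4.44 and -4.11 for the factors, -2.71, -4.33 and -4.10 for assembly, and -5.13, -6.35 and -5.98 for other apolipoproteins. They were 1.77, -0.06 and 0.32 for receptors, 0.0025, -2.40 and -1.54 for enzymes and carriers, and 0.89, -0.94 and -0.77 for efflux. Over all genes they were 1.62, -0.03 and 0.11.

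Cultured control cells held less Apoe and Apoc1 than quiescent cells. Strain, sorting and table differ along with culture in this comparison and cannot be told apart from it, and it shares the quiescent libraries with the comparison above. Of 5 members that passed the filter, 3 were called lower and none higher, by the same limma rule, and 13.2% of all 12537 genes tested were called lower, 18.6% higher and 31.8% in either direction. The median log2 difference was -1.05 over the 5 members and 0.26 over all genes. The share of called genes that were higher moved from 58.6% to 42.7% with median-of-ratios rescaling and to 48.2% with quantile normalisation. Apoa2, one of the 3 called lower, passed the filter through the quiescent cells alone, so its call is not independent of the filter. Apoa5, Apob, Apoc3, Apoh and Apom were not tested.

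Apoe was 2635, 2495 and 2548 TPM in the control cultures, all below the lowest quiescent library at 8020 TPM (log2 -1.81, SE 0.08, limma adjusted p = 1.63e-07). Apoc1 was 14.6, 12.1 and 18.3 TPM, against 278 TPM or more in quiescent cells (log2 -4.26, SE 0.13, limma adjusted p = 2.2e-08). Both groups were apart for both genes, as they were, on the lower side, for 23.6% of all genes. Kupffer cell markers moved with them: 12 of 13 were called lower under all 3 scalings, and in all 6 cultured libraries Slc40a1, the iron exporter, was the single listed marker at 1 TPM or more. Its 141 to 178 TPM made up nearly the whole list sum of 141 to 180 TPM in the controls. Sinusoidal endothelial markers were lower in 14 of 15 cases, with 3 of the 15 at 1 TPM or more in the control cultures. All other listed markers of both cell types passed the filter through the quiescent cells alone, so these counts are not independent of it. The listed stellate cell markers fell too, with 14 of 16 called lower and none higher (median log2 -2.98). The part of any of these cell types in the lower Apoe and Apoc1 was not tested. Other markers remained in the control cultures, among them the endothelial genes Egfl7 at 46.8 to 58.1 TPM and Pecam1 at 5.81 to 9.17 TPM. On a list of macrophages that store cholesterol, 2 of 3 tested genes were called higher in culture and 1 lower (median log2 4.31). Gpnmb was 22.4 to 27.2 TPM against at most 0.244 TPM in quiescent cells, and Lgals3 57.4 to 70.2 against at most 4.25 TPM. Cd9 was 1.62 to 1.98 against 15.9 to 19.8 TPM, and the remaining gene, Trem2, did not pass the filter. Csf1r, on the Kupffer cell list, was at most 0.3615 TPM in the controls. Whether macrophages carried these transcripts was not tested.

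Apoa2 was 0.389, 1.10 and 0.664 TPM in culture, all under the quiescent range (log2 -1.05, limma adjusted p = 0.00556). Hepatocyte markers were lower with it: 4 of 8 tested were called lower and none higher, with a median of -1.17. Several of the 8 passed the filter through the quiescent cells alone, so this count is not independent of it. Alb was one of them, at 4.52 to 11.2 TPM in quiescent cells and 0.120 to 0.560 TPM in the controls. The list summed to 31.9 to 56.9 TPM in the controls against 414 to 535 TPM in quiescent cells. Of these sums Trf alone was 22.1 to 48.0 TPM and 397 to 516 TPM, so they mostly follow 1 gene. The part of hepatocyte RNA in the Apoa2 value was not tested. Apoa2 dropped below the fold minimum without quiescent replicate 1 (-0.87) or control replicate 1 (-0.90) and with quantile normalisation (-0.91). Apoa1 (1.78, 1.70 and 15.4 TPM) and Apoa4 (0, 0 and 10.2 TPM) were not called, with log2 differences of 0.62 (adjusted p = 0.40) and 0.93 (adjusted p = 0.30). In both, control replicate 3 was far above replicates 1 and 2, and without it Apoa1 turned to -0.24 and Apoa4 no longer reached the mean of 1 TPM.

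Around them, receptor genes shifted in both directions. Of 12 tested 2 were higher and 5 lower. The Apoe receptor Lrp8 rose to 14.4 from 0.101 TPM (log2 3.77), while Lrp1 was 598 against 893 TPM (-0.58) and Scarb1 50.4 against 102 TPM (-0.999), both short of the fold minimum. Scarb1 was called lower with either rescaling (-1.26 and -1.27). Of 10 assembly genes 4 rose and 1 fell (2 and 3 rose with median-of-ratios rescaling and quantile normalisation), the rises including the cholesterol-esterifying enzymes Soat1 (64.3 against 16.4 TPM) and Soat2 (13.8 against 0.0284 TPM). Of 9 enzymes and carriers 4 fell and none rose, among them Pltp (94.1 against 562 TPM, log2 -2.56) and Gpihbp1, which holds lipoprotein lipase on capillary endothelium (0.561 against 62.4 TPM). Clu, apolipoprotein J, fell from 516 to 56.3 TPM (-3.17). None of 6 efflux genes was called by limma with the fold minimum, though all 6 had an unadjusted p under 0.05. With either rescaling 1 of the 6 was called lower, Abca1, which loads cholesterol onto Apoa1 (-1.21 and -1.19).

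UDP-glucose cultures differed from control cultures in 1 of 5 tested members. Apoe was 1887, 1915 and 1937 TPM with UDP-glucose and 2635, 2495 and 2548 TPM without, so the groups did not overlap and the mean was 1913 ± 25.04 against 2559 ± 70.5 TPM (SD, n = 3 each). The log2 difference was -0.42 (SE 0.05, limma adjusted p = 0.0185), with no fold minimum in this comparison. Of all 12161 genes tested 0.181% were called lower, 0.428% higher and 0.609% in either direction, and the median log2 difference was 1.57 over the 5 members and -0.05 over all genes. Of the called genes 70.3% were higher, and 86.3% after median-of-ratios rescaling. The call was not stable: it was lost without the filter on low values (adjusted p = 0.109), with median-of-ratios rescaling (log2 -0.37, adjusted p = 0.229), with all 4 bulk groups in 1 fit (adjusted p = 0.395) and without any 1 library other than control replicate 2 (log2 -0.40 to -0.43, adjusted p = 0.0702 to 0.136). Apoc1 was 8.12, 11.7 and 11.4 TPM against 14.6, 12.1 and 18.3 TPM, also without overlap, and was not called (log2 -0.49, adjusted p = 0.434). Values without overlap on the lower side were found for 11.5% of all genes.

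Apoa1, Apoa4 and Apoc3 had higher means with UDP-glucose, but the difference ran through the control group and not between the groups. Apoa1 was 13.0, 13.8 and 14.4 TPM with UDP-glucose, close to control replicate 3 at 15.4 TPM and far from controls 1 and 2 at 1.78 and 1.70 TPM. Apoa4 was 11.1, 9.75 and 8.20 TPM against 0, 0 and 10.2 TPM, and Apoc3 was 4.49, 3.03 and 6.12 TPM against 0, 0 and 4.22 TPM. In all 3 genes control replicate 3 lay with the treated libraries, and the limma log2 differences of 1.57, 2.25 and 1.64 were not called (adjusted p = 0.474, 0.439 and 0.434). Without control replicate 3, Apoa1 (2.43, adjusted p = 0.00385) and Apoa4 (3.41, adjusted p = 0.00379) were called higher, Apoe was no longer called (adjusted p = 0.136), and 21 of 12175 genes, 0.172%, were called higher and none lower. Control replicate 3 was singled out after its values were seen. Apoa4, at 0 in controls 1 and 2, then passed the filter through the UDP-glucose libraries alone, so its call is not independent of it.

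Some transcripts of intestinal epithelium were also near the UDP-glucose level in control replicate 3. A list of 20 such genes, chosen after these values were seen, summed to 12.9, 21.02 and 51.4 TPM in the controls and to 57.2, 41.1 and 38.3 TPM with UDP-glucose, and 3, 5 and 14 of its genes reached 1 TPM in the controls and 13, 14 and 11 with UDP-glucose. None of 10 tested was called by limma (3 had an unadjusted p under 0.05), and 2 of 10 were called higher without control replicate 3. Both were listed at 0 in controls 1 and 2 and then passed the filter through the UDP-glucose libraries alone. Fabp2, the intestinal fatty acid binding protein, was 0.987, 0.461 and 8.62 TPM in the controls and 11.6, 7.73 and 4.49 TPM with UDP-glucose. Guca2b, the gut peptide uroguanylin, was listed at 0 in controls 1 and 2, was 3.07 TPM in control 3 and 2.73 to 3.06 TPM with UDP-glucose. Others on the list did not follow: Muc2, a goblet cell mucin, was 1.61, 5.29 and 2.28 TPM against 2.87, 1.61 and 2.74 TPM, Lgals4 was 7.001, 8.59 and 7.63 against 9.59, 6.90 and 6.68 TPM, Cdx1 and Cdx2 were at most 0.385 TPM, and Olfm4 was listed at 0 in all 6. Whole liver held Fabp2 at 43.8 to 70.04 TPM, and Guca2b was listed at 0 in all 3 liver libraries. Apoc2, the activator of lipoprotein lipase, was 0, 0 and 2.15 TPM in the controls and 1.67 to 2.64 TPM with UDP-glucose.

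Hepatocyte markers did not follow this order. They summed to 31.9 to 56.9 TPM in the controls and 40.0 to 53.7 TPM with UDP-glucose, of which Trf alone was 22.1 to 48.0 and 29.8 to 46.2 TPM. Alb was 0.120, 0.392 and 0.560 against 0.143, 3.33 and 0.799 TPM. For Acta2, smooth muscle actin, control replicate 3 lay near the other controls: 258, 258 and 276 TPM against 646 to 699 TPM with UDP-glucose. The part of intestinal transcripts in the Apoa1, Apoa4 and Apoc3 values was not tested.

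**Figure D3:**
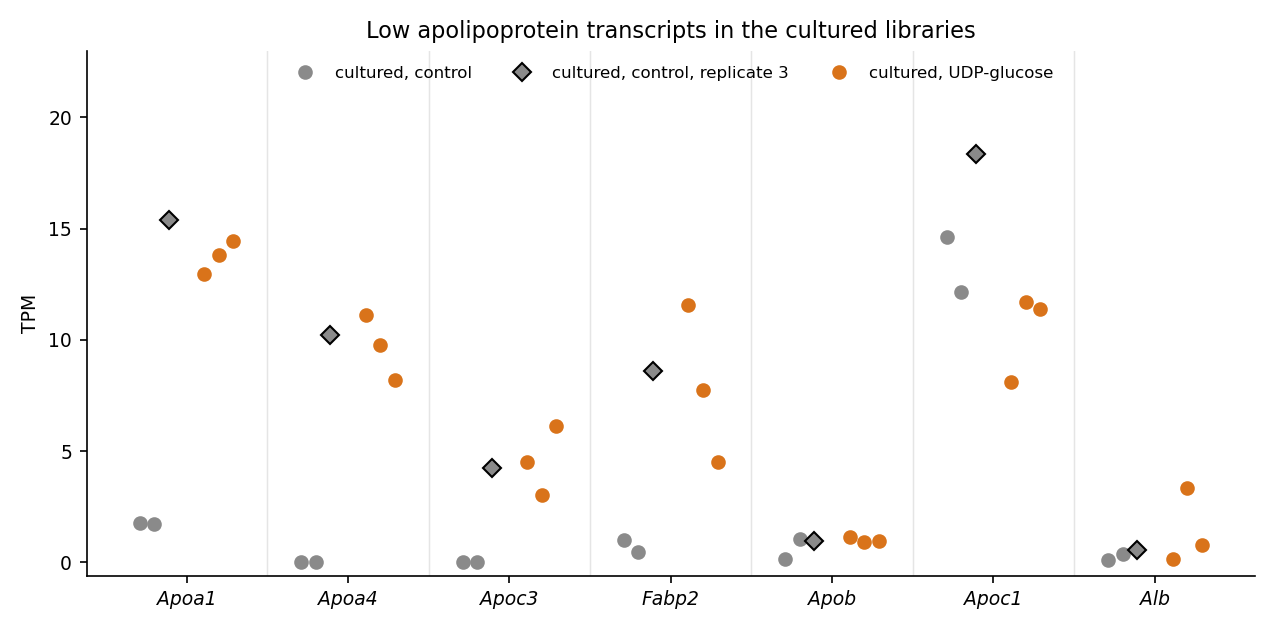
TPM of 5 apolipoprotein genes, the intestinal gene Fabp2 and the hepatocyte gene Alb in each of the 6 cultured libraries, with control replicate 3 drawn as a diamond. For Apoa1, Apoa4, Apoc3 and Fabp2 the diamond lies with the UDP-glucose libraries (Apoa1 15.4 TPM beside 13.0 to 14.4), and for Alb, Apob and Apoc1 it does not separate from the other controls in this way.

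The remaining members were near 0 in all cultures and were not tested. Apob was 0.168, 1.03 and 0.939 TPM in the controls and 1.13, 0.928 and 0.970 TPM with UDP-glucose. Apoa2, Apoa5, Apoh and Apom were at most 1.97 TPM in any cultured library. No gene of the 6 lists around apolipoproteins was called by limma: of 6 other apolipoproteins, 10 assembly, 7 enzyme, 10 receptor, 6 efflux and 4 nuclear factor genes tested, 4, 3, 1, 2, 2 and 1 had an unadjusted p under 0.05. Clu, named for its p, was 41.0 against 56.3 TPM (log2 -0.45, adjusted p = 0.0557). Lrp1 was 561 against 598 TPM (-0.09) and Lrp8 10.7 against 14.4 TPM (-0.38), with no call.

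Across the 13 bulk libraries the members fell into different company, given here as a description, since the libraries share groups and the liver libraries set much of each r. Pearson's r of log2(TPM + 1) was taken against 9979 genes averaging 5 TPM or more, predicted and Mup genes left out. Apoa4 was most like Fabp2 (r = 0.975), with the next gene, Nat2, at 0.900. Apoa1 was most like Apoc2 (0.998) and Apoc3 (0.997), and Apoc3 like Apoa1 (0.997) and Cyp3a13 (0.996). Apoh and Apom were most like each other (0.999). Apob was most like Gstm3 (0.999), and Hnf4a was among its nearest 3 (0.999). Apoa2 stood nearest Phyh (0.999), Apoc1 nearest Abcb11 (0.996) and Apoe nearest Cmbl (0.994).

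In the single-cell library each transcript carries a unique molecular identifier (UMI), and 5063 barcodes held 12101368 UMIs, with a median of 1983. Filters left 4808 cells, which formed 22 clusters when 20 apolipoprotein, Saa and Clu genes were left out of the clustering, and 19 clusters could be named "-like" from listed markers, in 13 classes, with 116 cells unnamed. With 1 library there is no test between classes. Intervals are 95% and cover counting error only, and levels are CPM, a gene's UMIs scaled to a fixed total in each class. Free RNA in a cell suspension can put hepatocyte transcripts into droplets, and cells captured together can do so too. T, NK and B cell-like cells together (lymphoid-like, 704 cells, median 1866 UMIs) were therefore taken as a background level, and neither source was measured apart. Hepatocyte markers came to 75215 CPM in hepatocyte-like cells and 1082 CPM in lymphoid-like cells.

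Apoe was abundant in several classes beside hepatocytes. It reached 16455 CPM (interval 16246 to 16666) in 491 hepatocyte-like cells and 16534 CPM (16276 to 16795) in 426 Kupffer-like cells, whose intervals overlap. Stellate-like cells (344 cells) held 7518 CPM (7361 to 7678), sinusoidal endothelial-like cells (2120 cells) 6896 CPM (6815 to 6978) and vein endothelial-like cells (286 cells) 4761 CPM (4587 to 4939). These 3 intervals are apart from each other and from the 1689 CPM (1625 to 1754) of lymphoid-like cells. Because the sinusoidal endothelial-like class was the largest, it held 30.8% of all Apoe UMIs, hepatocyte-like cells 26.7%, Kupffer-like cells 17.6% and stellate-like cells 9.77%.

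Apoc1 had a narrower range of classes. It was 13268 CPM (13080 to 13457) in hepatocyte-like cells, 4635 CPM (4499 to 4775) in Kupffer-like cells, 554 CPM (511 to 598) in stellate-like cells, 381 CPM (362 to 401) in sinusoidal endothelial-like cells and 252 CPM (227 to 278) in lymphoid-like cells. Hepatocyte-like cells held 70.3% of its UMIs and Kupffer-like cells 16.1%. After each cell was thinned to 1000 UMIs, Apoc1 was seen in 91.6% of 416 Kupffer-like, 33.9% of 342 stellate-like, 27.6% of 2090 sinusoidal endothelial-like and 18.3% of 696 lymphoid-like cells, with 10, 2, 30 and 8 shallower cells left out. Before thinning these shares were 96.2%, 63.1%, 42.7% and 37.1%. For Apoe the thinned shares were 100%, 98.0%, 98.9% and 64.9%, and 100%, 99.4%, 99.9% and 81.7% before.

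**Figure D4:**
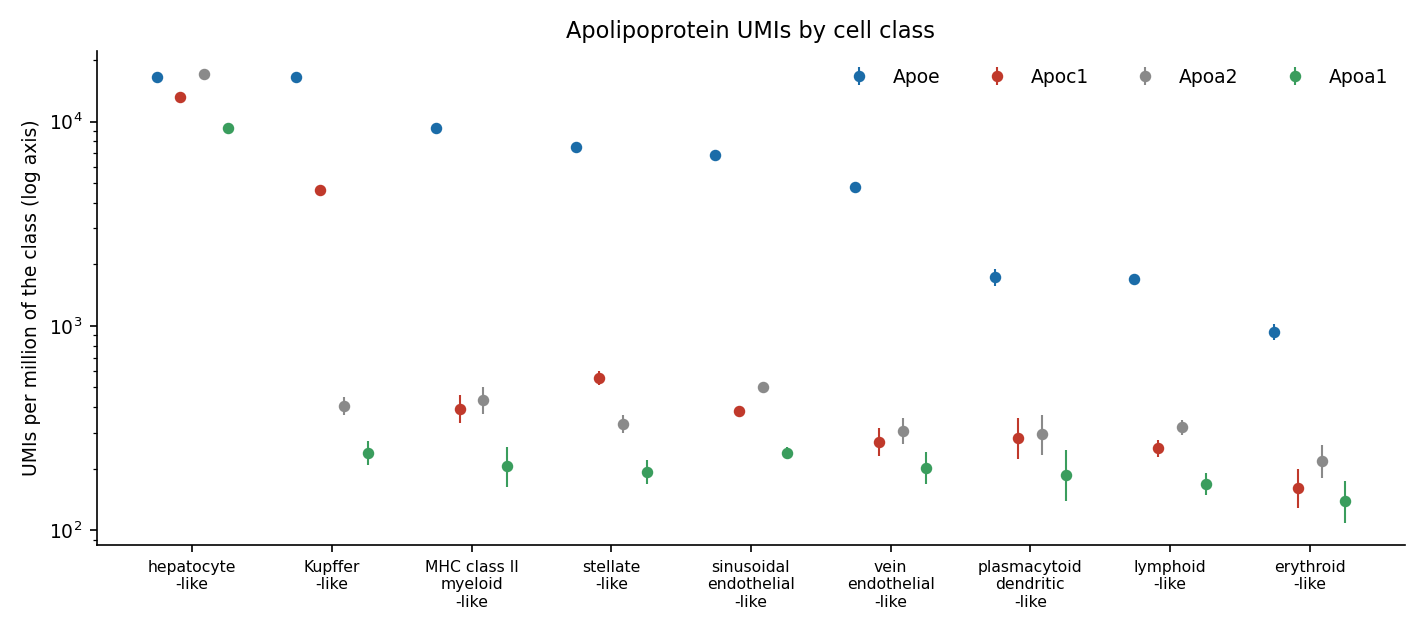
CPM of Apoe, Apoc1, Apoa2 and Apoa1 in 9 cell classes, on a log axis, with 95% counting intervals. Apoe is at 4761 CPM or more in 6 classes, Apoc1 at 4635 CPM or more in hepatocyte-like and Kupffer-like cells alone, and Apoa1 and Apoa2 at 502 CPM or less outside hepatocyte-like cells.

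Each gene was then set against hepatocyte markers in the same class, since free RNA from 1 source keeps its genes' counts in 1 ratio in every class. Per hepatocyte-marker UMI, Apoa1 was 0.123 in hepatocyte-like cells, 0.156 in lymphoid-like cells and 0.122 to 0.188 in the other classes of at least 50 cells. Apoa2 was 0.227, 0.295 and 0.209 to 0.297, and Apoc3 was 0.0680, 0.0781 and 0.0480 to 0.0734. In none of 9 other named classes did the ratio of Apoa1, Apoa2, Apoa5, Apob, Apoc3, Apoh or Apom rise above that of lymphoid-like cells beyond its interval. Apoa4 did so in erythroid-like cells alone, on 3 UMIs, beside 1 UMI in lymphoid-like cells. Classes beyond the interval on the lower side numbered 2 for Apoa1, 3 for Apoa2, 1 for Apob, 2 for Apoc3 and 4 for Apoh. In stellate-like cells Apoa1 was 0.828 times and Apoa2 0.751 times the lymphoid-like ratio, so neither rose above the background in these cells, and after thinning their shares of cells (18.4% and 25.2%) had intervals that overlap those of lymphoid-like cells (14.8% and 27.2%). The markers in this ratio include Trf, at 397 to 516 TPM in the sorted stellate cells, and its part in the ratio was not tested.

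Apoe and Apoc1 departed from that ratio. Apoe was 0.219 per hepatocyte-marker UMI in hepatocyte-like cells, 8.48 (8.08 to 8.91) in Kupffer-like cells, 5.01 (4.75 to 5.27) in stellate-like cells and 4.02 (3.92 to 4.13) in sinusoidal endothelial-like cells. Relative to lymphoid-like cells these last were 5.44 (5.02 to 5.88), 3.21 (2.96 to 3.48) and 2.58 (2.41 to 2.76) times as high. Without cells that held 3 markers of a second class, 2674 of 4808, the 3 ratios were 10.7, 6.53 and 4.19, well outside these counting intervals. Hepatocyte markers did not count as a second class there, so no cell was left out for holding them. Apoe stood above lymphoid-like cells in 6 of 9 classes, the others being vein endothelial-like, MHC class II myeloid-like and cholangiocyte-like cells, the last on 7 cells, and below them in erythroid-like cells. Lymphoid-like cells themselves held 1.56 Apoe UMIs per hepatocyte-marker UMI, above the 0.219 of hepatocyte-like cells, and they were not uniform: the ratio was 0.807 in NK, 1.51 in B and 1.79 in T cell-like cells, and their Apoe fell from 1689 to 965 CPM without cells holding markers of a second class. For the other members save Apom, by contrast, hepatocyte-like cells were 0.672 to 0.871 times the lymphoid-like ratio, and Apom was 1.02 times. These values pool clusters that differed. In the hepatocyte-like clusters of 335 and 156 cells the ratio was 0.00313 and 0.0191 for Apob and 0.00374 and 0.0122 for Apoa5. For Apoc3 it differed the other way, at 0.096 and 0.0448, and for Apoa1 less, at 0.137 and 0.112. Lymphoid-like cells held 0.0136 for Apob, 0.0124 for Apoa5 and 0.0781 for Apoc3. The bearing of this split on the background level was not tested.

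Apoc1 stood above lymphoid-like cells in 2 of 9 classes. It was 2.38 per hepatocyte-marker UMI in Kupffer-like cells, 10.2 times (9.04 to 11.6) the lymphoid-like 0.232, and 0.369 in stellate-like cells, 1.59 times (1.37 to 1.83). In sinusoidal endothelial-like cells it was 0.222, with an interval of 0.844 to 1.08 times that includes 1. Kupffer RNA was also present outside its class: Clec4f was 3437 CPM in Kupffer-like, 53.8 CPM in stellate-like and 35.2 CPM in lymphoid-like cells. Its part in the Apoc1 of stellate-like cells was not tested.

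**Figure D5:**
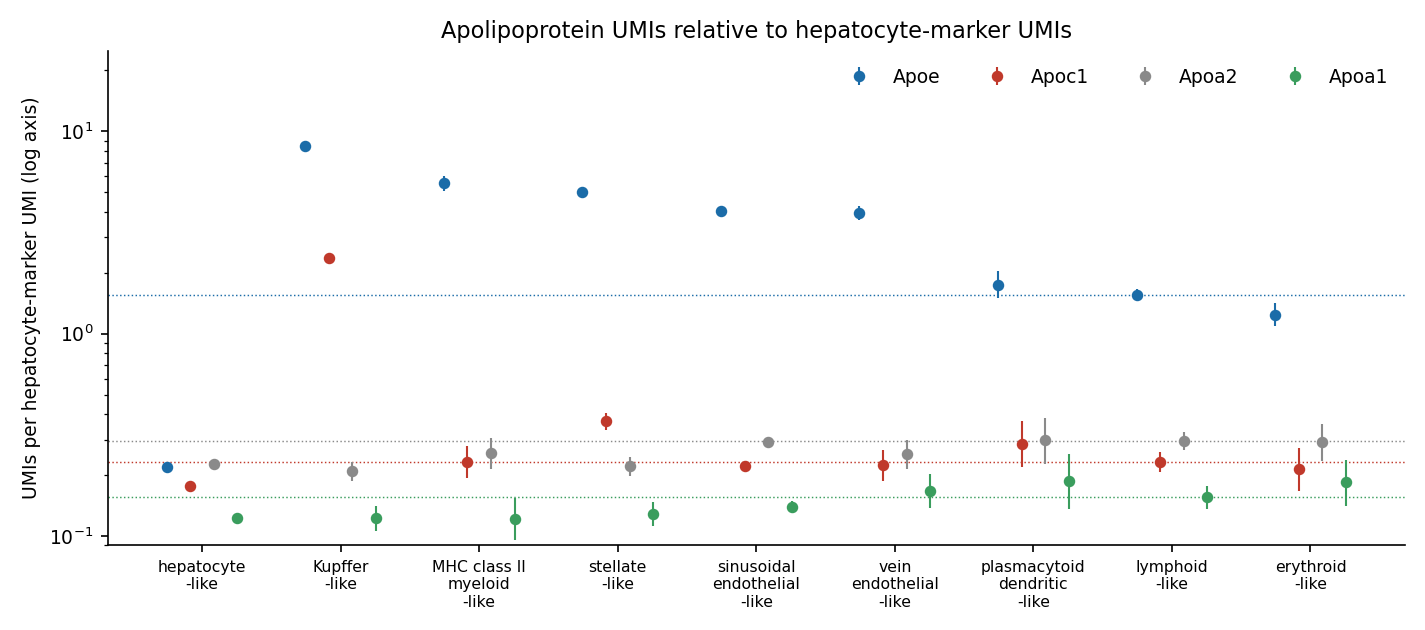
UMIs of Apoe, Apoc1, Apoa2 and Apoa1 per UMI of the 16 hepatocyte markers in the same class, on a log axis, with 95% counting intervals. Dotted lines mark the lymphoid-like level of each gene. Apoa1 and Apoa2 stay near their lines in all 9 classes, while Apoe reaches 8.48 and Apoc1 2.38 in Kupffer-like cells.

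Lrp1, Pltp and Clu, all abundant in the sorted quiescent cells, were also seen in stellate-like cells of this library. Lrp1 was 463 CPM there, 523 CPM in Kupffer-like, 129 CPM in hepatocyte-like and 12.8 CPM in lymphoid-like cells. Pltp was 277 CPM in stellate-like and 602 CPM in Kupffer-like cells, against 14.6 CPM in hepatocyte-like and 21.1 CPM in lymphoid-like cells. Clu was 308 CPM in stellate-like and 833 CPM in hepatocyte-like cells, with 26.2 CPM in lymphoid-like cells. Lrp8, higher in culture than in quiescent cells, had 0 UMIs in stellate-like cells, whose interval reaches 3.20 CPM.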

How the data were processed

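RNA was measured in 13 bulk libraries and 1 single-cell library. The bulk values are TPM in 3 tables deposited by the authors, and the submitters' processing notes name kallisto 0.44.0, bcl2fastq 2.19, Cell Ranger and the build GRCm38/mm10. TPM summed to 998190 to 999797 per library. Of 35197 rows, 26 whose gene names had become dates (at most 0.319% of TPM) were left out. Groups and replicates followed the labels. The treated cultures are titled UDP but described as given UDP-glucose.

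Levels were log2(TPM + 1) for genes averaging 1 TPM or more over the groups compared, tested with limma 3.58.1 in R 4.3.3 with a trended variance and Benjamini-Hochberg adjustment over all genes tested. A gene was called at an adjusted p under 0.05 and, between tables, a log2 difference of at least 1. The fit was checked on simulated data. Genes named were the members, up to 3 genes most like each by Pearson's r, up to 4 called genes of each role list with the highest mean TPM, receptors of Apoe, and defining markers. A gene that the rule also names is not reported here. Hnf4a, Lrp8 in single cells, Abca1, Clu where not called and the intestinal genes were named after their values were seen. The members and lists were chosen with earlier results of these data known, and the intestinal list and the promoter letters after their values were seen. Alternatives were the pseudocount (0.1), no filter, median-of-ratios rescaling, quantile normalisation, all 4 groups in 1 fit, values without mitochondrial and Mup genes, and each library left out.

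The single-cell matrix deposited by the authors holds raw UMI counts of 5063 barcodes, the lowest with 968 UMIs. Barcodes with under 200 genes (207) or over 20% mitochondrial UMIs (63) were left out. Cells were clustered with scanpy 1.11.5 in Python 3.11.15 (2000 variable genes, 30 components, 15 neighbours, Leiden resolution 1). A cluster was named for the list with at least 3 markers among its top 50 genes by fold and at least 2 times as many as the next list, a score chosen after the data were seen. No doublet caller was run, and an alternative left out cells with 3 markers of a second class. Among the lists not counted as a second class were those of hepatocytes and of related lineages. Intervals of CPM are exact Poisson ones, and those of shares and of ratios within a class are Clopper-Pearson ones (scipy 1.17.1). Intervals of a ratio relative to lymphoid-like cells are those of a conditional odds ratio.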

Additional observations from a re-analysis of the deposited data

How the results depend on the processing

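No paired analysis was possible because the labels give the groups no shared replicate numbers. Against whole liver, 129 of 130 member values kept their direction and call, and Apoe turned to 0.44 on the log2 scale with quantile normalisation (limma adjusted p = 0.0233). Between culture and quiescent cells 61 of 64 kept both, the 3 others being those of Apoa2. With UDP-glucose 50 of 60 did: the number of members called, 1, became 0 without the filter, with median-of-ratios rescaling and with all 4 groups in 1 fit, and ranged from 0 to 2 when single libraries were left out. All genes called numbered 74, and 30, 73 and 23 under those 3 alternatives. The cause of these losses was not tested.

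In single cells 47 of 64 values moved by less than their counting interval. Leaving out cells with 3 markers of a second class, 2674 of 4808, moved Apoe to 16003 CPM in hepatocyte-like, 21869 in Kupffer-like, 7996 in stellate-like and 965 in lymphoid-like cells. The ratios over lymphoid-like cells then were 10.7 (Kupffer-like), 6.53 (stellate-like) and 4.19 (sinusoidal endothelial-like) for Apoe, 12.2 (Kupffer-like) and 2.01 (stellate-like) for Apoc1, and 0.629 (stellate-like) for Apoa2. At most 10% mitochondrial UMIs gave Apoe 14826 CPM in hepatocyte-like and 16234 CPM in Kupffer-like cells and a sinusoidal endothelial-like ratio of 3.09. That ratio was 2.40 with at least 1000 UMIs and 3.15 without 1 endothelial-like cluster rich in hepatocyte markers, a setting chosen after seeing the data. The Kupffer-like ratio was 4.90 with Alb left out of the markers, and sinusoidal endothelial-like Apoe was 7104 CPM at resolution 0.5.

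The bulk depth is unknown, so the counting error of low TPM values cannot be stated, and 1 single-cell library gives no spread between livers.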

Other observations

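Apoe varied within classes of the single-cell library. In 115 MHC class II myeloid-like cells the median was 16.6 UMIs per 10000, yet 24 cells held 200 or more and 72 held under 50. Of the 2 Kupffer-like clusters, the one of 85 cells held 22826 CPM and the one of 341 cells 15418 CPM. An unnamed cluster of 50 cells, with 12 Kupffer and 7 stellate markers among its top 50 genes, held 9984 CPM of Apoe and 2790 CPM of Apoc1. An endothelial-like cluster of 68 cells held hepatocyte markers at 10372 CPM, and its 0.766 Apoe UMIs per hepatocyte-marker UMI lay below the 4.58 to 5.31 of 3 other sinusoidal clusters.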
